A study of Mus musculus with 21 samples.

Results

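Interferon-stimulated genes are the genes that cells switch on when type I interferons (interferon alpha and beta) or interferon gamma reach them. The 41 described here were taken by symbol from a list of such genes by a rule that holds no measured value, although the list was drawn up with earlier results of these data known. All 41 were found in each of the 21 count tables, among 55418 gene symbols, and all 41 were among the 15677 genes with enough reads to be tested. They were measured by RNA-seq of whole mouse liver in 4 groups. Mice were Mboat7 wildtype (WT) or had Mboat7 deleted in hepatocytes (KO), and ate chow or a High fat methionine low choline deficient diet, shortened in the labels to HFCDD. There were 6 WT and 7 KO livers on chow, from mice 10 weeks old, and 4 WT and 4 KO livers on HFCDD, from mice that were 6 to 8 weeks old when a feeding period of 6 weeks began. Mboat7 encodes an enzyme that places arachidonic acid on lysophosphatidylinositol. The recombinase driver, strain and sex are not given in the sources used here, and each library comes from 1 numbered animal. The animal numbers of the HFCDD and chow mice fall in separate ranges, so diet, age and animal series cannot be told apart in any comparison of the diets.

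Type I interferon binds the receptor pair Ifnar1 and Ifnar2, and interferon gamma binds Ifngr1 and Ifngr2. Janus kinases at these receptors phosphorylate STAT proteins. STAT2 and IRF9 are parts of the complex ISGF3, which binds interferon-stimulated response elements (ISRE), while the response to interferon gamma is read mainly through gamma-activated sites (GAS). The induced proteins sense viral nucleic acid, block translation of viral RNA, degrade RNA, modify proteins with ISG15, attack the vacuoles of intracellular microbes and feed peptides to MHC class I. In liver, hepatocytes, Kupffer cells, endothelium and infiltrating leukocytes can all respond to interferon, and many of these genes have a basal level without infection.

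The library totals ranged from 17502231 to 23058789 counts on chow and from 22617598 to 25822972 on HFCDD, and no pair of libraries held identical values. Levels are given in CPM, a gene's count relative to its library total, with totals scaled by the trimmed mean of M values. Mboat7 itself was 36.2 ± 2.72 CPM (SD, n = 6) in WT and 21.3 ± 1.77 (SD, n = 7) in KO livers on chow, and 36.2 ± 1.47 (SD, n = 4) and 18.9 ± 2.24 (SD, n = 4) on HFCDD, with no overlap between genotypes on either diet. The 6 hepatocyte markers summed to between 83770 and 127100 CPM in every liver. In 4 chow livers (WT 3 and 5, KO 1 and 7) the gland and mucosa markers Dmbt1 and Muc6 summed to between 30.6 and 113.9 CPM, against at most 0.640 CPM in the other chow livers. KO chow liver 7 also had the highest sum of plasmacytoid dendritic cell markers, 17.6 CPM. That sum is over 5 markers, of which 4 had enough reads to be tested. The 4 tested ones differed by -0.37 to 0.55 in log2 between KO and WT on chow, and none was called. The 17.6 CPM is therefore not a shared rise of the list. Comparisons on chow are also given without the livers rich in Dmbt1 and Muc6 where that changes a call.

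Promoter sequence shows the elements through which this family is known to be read. The RefSeq promoter table (GRCm38.p6) held 31 of the 41 genes, each with 250 bases before and 50 bases after the transcription start; 4 of the 31 had 2 such windows, and a gene is counted where any of its windows holds a match. Windows were searched on both strands for an ISRE-type match, GAAA followed by any 2 bases and GAAA, and for a GAS-type match, TTCNNNGAA, which reads the same on either strand. An ISRE-type match was present in 17 of 31 genes (54.8%), against 1079 of 27025 genes with a promoter in the table (3.99%). A GAS-type match was present in 9 of 31 (29.0%), against 9.55% of all genes. Both matches were present in 5 of the 31 and neither in 10. These are descriptions of letters in a window and say nothing of binding. Sequences of 6 members are shown because they hold the arrangements that recur in the family, and the results return to all 6 genes. Each runs 5′ to 3′ on the gene's own strand over the 250 bases before the start, and capitals mark the matches, with TTTC as the reverse complement of GAAA. The windows are chr4:156200819-156201068 on the minus strand for Isg15, chr19:34640639-34640888 for Ifit1, chr19:34583279-34583528 for Ifit3, chr3:142620413-142620662 for Gbp2, chr11:58199306-58199555 for Igtp and chr11:58214727-58214976 for Irgm2, the last 5 on the plus strand.
Isg15: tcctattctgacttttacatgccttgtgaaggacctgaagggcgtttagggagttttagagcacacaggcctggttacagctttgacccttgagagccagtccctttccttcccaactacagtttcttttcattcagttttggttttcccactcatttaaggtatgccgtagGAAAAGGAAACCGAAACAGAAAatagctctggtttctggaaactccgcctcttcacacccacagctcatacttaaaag
Ifit1: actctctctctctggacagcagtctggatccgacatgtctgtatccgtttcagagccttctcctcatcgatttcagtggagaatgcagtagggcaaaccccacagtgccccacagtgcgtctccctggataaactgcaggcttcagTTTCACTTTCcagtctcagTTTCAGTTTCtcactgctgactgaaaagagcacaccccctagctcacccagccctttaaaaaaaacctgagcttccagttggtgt
Ifit3: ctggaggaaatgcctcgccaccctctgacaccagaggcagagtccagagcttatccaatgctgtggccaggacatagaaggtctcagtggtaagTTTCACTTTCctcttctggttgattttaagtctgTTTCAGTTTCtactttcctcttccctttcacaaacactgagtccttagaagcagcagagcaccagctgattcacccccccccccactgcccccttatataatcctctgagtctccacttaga
Gbp2: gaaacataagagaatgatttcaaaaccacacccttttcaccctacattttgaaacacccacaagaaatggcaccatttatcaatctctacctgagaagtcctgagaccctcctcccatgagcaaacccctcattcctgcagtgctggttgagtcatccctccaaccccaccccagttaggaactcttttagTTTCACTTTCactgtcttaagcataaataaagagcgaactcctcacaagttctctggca
Igtp: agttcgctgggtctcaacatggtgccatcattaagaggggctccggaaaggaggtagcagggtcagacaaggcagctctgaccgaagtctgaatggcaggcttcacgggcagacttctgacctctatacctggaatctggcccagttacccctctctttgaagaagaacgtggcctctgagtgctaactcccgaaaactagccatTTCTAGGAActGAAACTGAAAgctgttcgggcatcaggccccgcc
Irgm2: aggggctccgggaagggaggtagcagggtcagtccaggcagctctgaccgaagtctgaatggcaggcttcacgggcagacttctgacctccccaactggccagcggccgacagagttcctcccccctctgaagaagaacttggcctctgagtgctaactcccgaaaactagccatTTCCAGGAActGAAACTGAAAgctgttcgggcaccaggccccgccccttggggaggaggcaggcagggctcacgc

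Isg15 held 3 overlapping ISRE-type matches in 1 run that began 78 bases upstream of its start. Ifit1 held 2 on the minus strand, the nearer beginning 85 bases upstream, and Ifit3 held 2, beginning 156 and 122 bases upstream. Ifit3b, the near copy of Ifit3, had the same pair 188 and 154 bases upstream. Gbp2 held 1 match, 59 bases upstream. In Igtp and Irgm2 a GAS-type match stood directly before an ISRE-type match, at 45 and 34 bases upstream in Igtp and at 75 and 64 in Irgm2. All 6 of the interferon-gamma GTPase genes with a promoter in the table (Gbp2, Gbp3, Gbp7, Igtp, Irgm1 and Irgm2) held an ISRE-type match, as did 3 of the 4 IFIT genes.

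Per kilobase of exon, the level of the 41 genes spanned from 0.166 to 110 CPM per kilobase as means of the WT chow livers. Bst2, which encodes tetherin, a membrane protein that holds budding virus on the cell, was highest at 110 CPM per kilobase and was highest in each of the 4 groups. Iigp1, a GTPase that attacks parasite vacuoles, was second in each group (48.4 CPM per kilobase in WT on chow). Oas3, an enzyme that makes the 2′,5′-linked oligoadenylate activating RNase L, was lowest on chow at 0.166 CPM per kilobase in WT livers. On HFCDD the lowest was Mx2, a dynamin-like GTPase, at 0.957 CPM per kilobase in WT livers. Isg15, the ubiquitin-like modifier, moved from rank 13 of 41 in WT on chow (7.07 CPM per kilobase) to rank 3 on HFCDD (20.6). Stat2 moved the other way, from rank 6 (13.5 CPM per kilobase) to rank 21 (7.89).

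**Figure D1:**
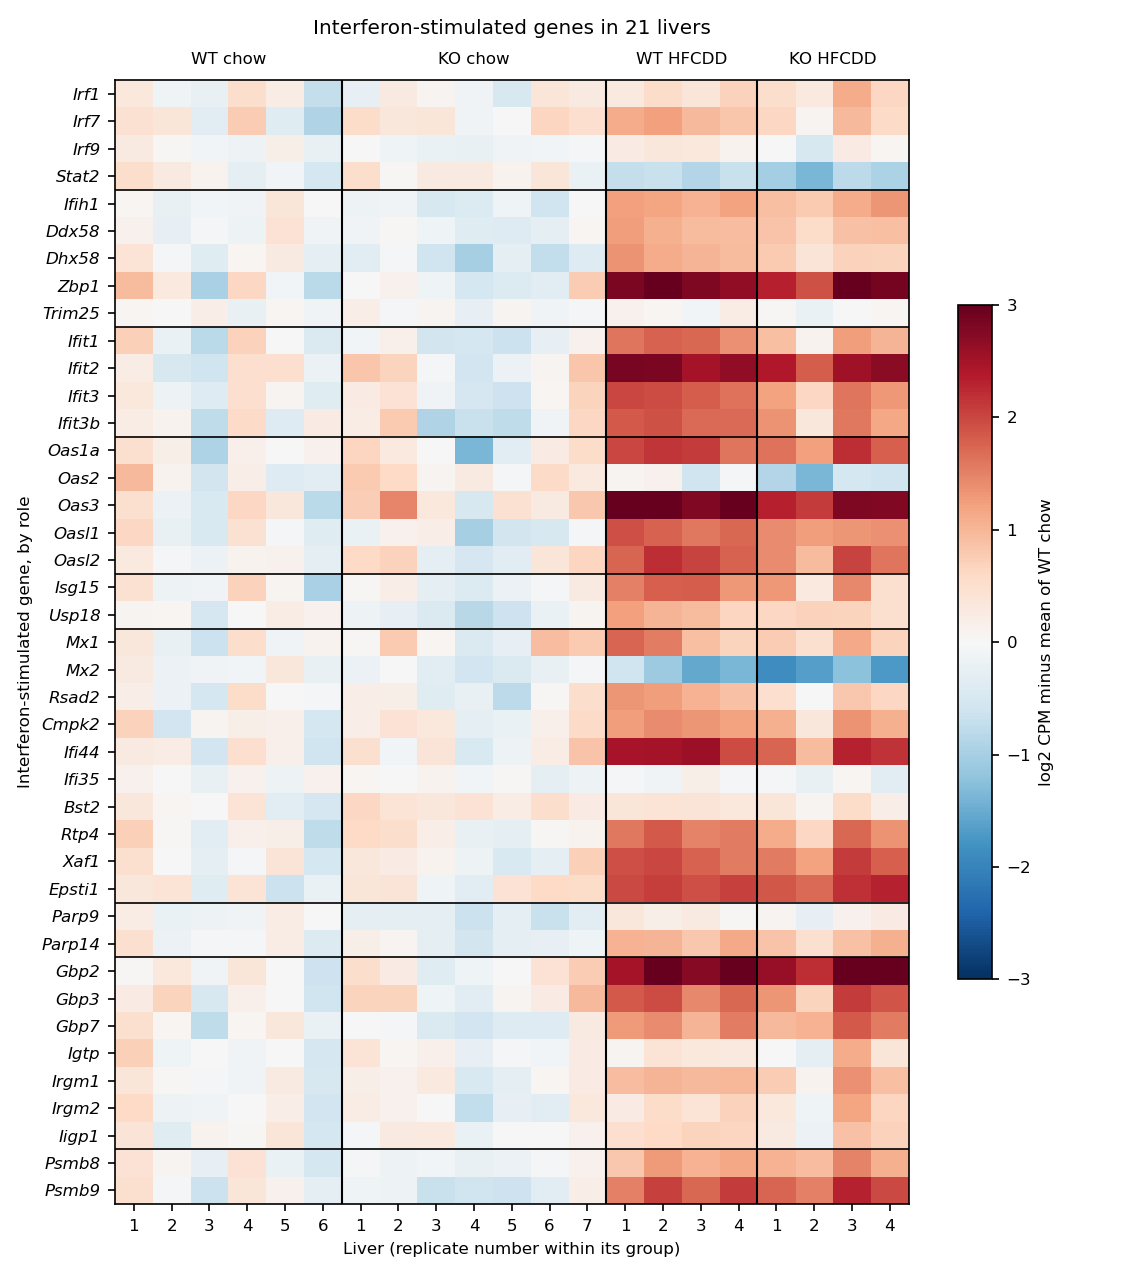
Each cell is the log2 CPM of a gene in a liver minus the mean of that gene over the 6 WT chow livers. Rows are the 41 genes grouped by role and columns the 21 livers by group. Most rows are red in all 8 HFCDD livers, Stat2 and Mx2 are blue there, and KO HFCDD liver 2 is paler than its neighbours in most rows.

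Most interferon-stimulated genes were higher on HFCDD than on chow, in both genotypes. In WT livers 31 of 41 rose, 2 fell (Stat2 and Mx2) and 8 were not called. In KO livers 31 rose, 3 fell (Stat2, Mx2 and Oas2) and 7 were not called. A gene is called here when its Benjamini-Hochberg adjusted p in the edgeR quasi-likelihood test over all genes is under 0.05. The background is large: 29% of all genes tested rose and 33.6% fell in WT livers, and 33.7% rose and 36% fell in KO livers. The median log2 fold change of the 41 genes was 1.158 in WT and 1.003 in KO, beside medians of -0.05 and -0.02 over all genes. In WT, every HFCDD liver was above every chow liver for 30 of the 41 genes, against 23.1% of all genes, and below for 2, against 24.1%. In KO it was above for 21, against 25.7%, and below for 3, against 27.3%. The 2 diet comparisons share no library, and 28 genes rose in both. Both carry the same difference of age and animal series, and the share of all genes that rose in both is not given here. Irf7, Mx1 and Bst2 passed only in WT and Irf1, Parp9 and Irgm2 only in KO. However, no member's diet effect passed a test of the difference between genotypes, described below.

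Whole liver was measured, so more cells of a type and more RNA per cell cannot be told apart. Marker genes of several other cell types moved with the diet. All 6 recruited macrophage markers rose in both genotypes: their summed level was 3.24 to 7.47 CPM in WT and 2.68 to 10.4 in KO livers on chow, and 503 to 658 and 583 to 917 on HFCDD. Kupffer cell markers summed to 182 to 546 CPM in WT and 280 to 378 in KO on chow, and to 703 to 940 and 575 to 794 on HFCDD, with 3 of 5 called higher in each genotype. Plasmacytoid dendritic cells are specialised in making type I interferon. Their markers summed to 0.391 to 1.33 CPM in WT and 0.490 to 17.6 in KO on chow. On HFCDD they summed to 5.08 to 6.14 in WT and 4.34 to 7.44 in KO. The 17.6 was KO chow liver 7, one of the livers rich in Dmbt1 and Muc6, and the next highest there was 1.31. These sums are over 5 markers, and all 4 tested markers were called higher in each genotype. T and NK cell markers went from 2.07 to 4.37 CPM in WT and 2.83 to 3.92 in KO on chow to 6.33 to 10.9 and 6.36 to 13.2, and neutrophil markers from 1.23 to 9.23 and 2.29 to 4.38 to 12.7 to 16.4 and 10.1 to 22.7. Stellate cell markers summed to 52.7 to 83.5 CPM in WT and 51.1 to 199.4 in KO on chow, and to 272 to 328.2 and 297 to 377 on HFCDD, with 4 of 5 called higher in each genotype. Cholangiocyte markers had 2 of 5 called higher in WT and 4 in KO, and endothelial markers 3 of 5 and 2. B cell markers had 2 of 4 called higher in WT, and 0 called higher and 1 lower in KO. They summed to 1.03 to 6.84 CPM in WT and 3.38 to 8.88 in KO on chow, and to 6.47 to 7.62 and 4.78 to 8.00 on HFCDD. Hepatocyte markers had 3 of 6 called lower in WT and 4 in KO. No marker of macrophages, Kupffer cells, plasmacytoid dendritic cells, T and NK cells or neutrophils was without a read in any group. The part of these cells in the interferon-stimulated genes was not tested.

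**Figure D2:**
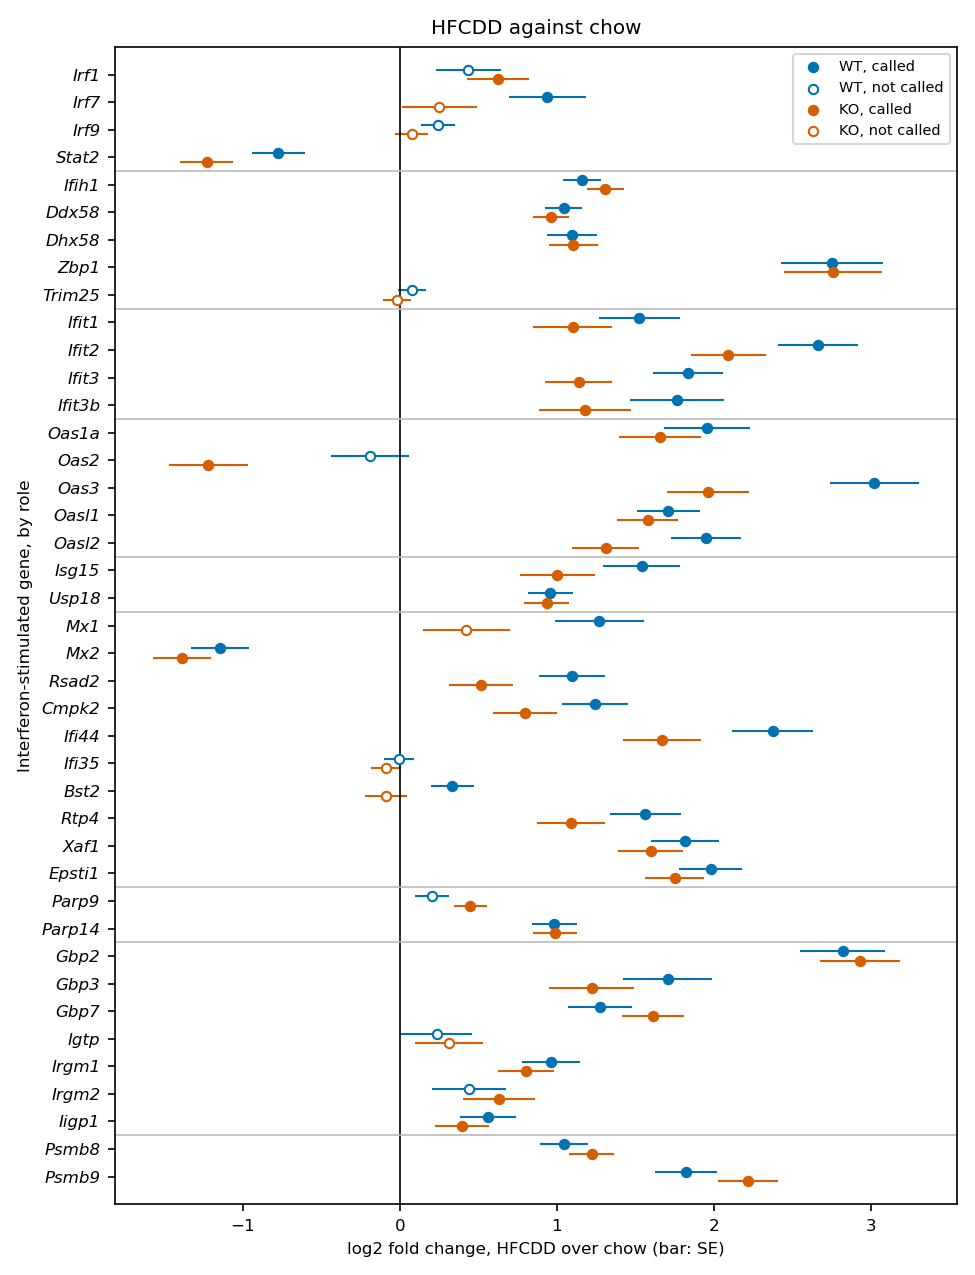
Points are log2 fold changes of HFCDD over chow with bars of 1 SE from the edgeR fit, for WT (blue) and KO (orange) livers. Filled points have an adjusted p under 0.05. Oas3 and Gbp2 lie farthest to the right, and Stat2, Mx2 and, in KO, Oas2 lie to the left of 0.

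Of the 4 signalling genes, Stat2 fell in both genotypes. Stat2, the transactivating subunit of ISGF3, was 47.2, 49.0, 42.0 and 48.9 CPM in the 4 WT HFCDD livers, against 53.5 to 112.2 (median 78.0) on chow. The KO livers had 38.5, 30.0, 44.8 and 40.02 CPM on HFCDD, against 67.5 to 112.4 (median 93.6). All HFCDD livers lay below all chow livers of their genotype, and Stat2 fell by 0.77 on the log2 scale in WT (SE 0.17, edgeR adjusted p = 0.00039) and by 1.23 in KO (SE 0.17, edgeR adjusted p = 1.1e-06). Irf9, the DNA-binding subunit of that complex, was 0.24 ± 0.11 higher in log2 (SE, edgeR adjusted p = 0.057) in WT and 0.08 ± 0.11 in KO (SE, edgeR adjusted p = 0.53), neither of them called. In WT the Irf9 result lies at the threshold, and 10 of 19 alternative analyses called it higher, with log2 differences of 0.22 to 0.32 over the 19. Irf7, which amplifies type I interferon production, was 68.5, 74.0, 61.6 and 56.3 CPM in WT on HFCDD, all above the 16.8 to 53.3 (median 32.9) of WT on chow. KO livers on HFCDD had 48.6, 33.5, 61.7 and 47.3 CPM, of which 3 lay inside and 1 above the 29.4 to 49.1 (median 40.7) of KO on chow. It rose by 0.94 ± 0.24 on the log2 scale in WT (SE, edgeR adjusted p = 0.0026) and differed by 0.25 ± 0.24 in KO (SE, edgeR adjusted p = 0.36). Irf1, induced through GAS elements, rose in KO by 0.63 ± 0.20 in log2 (SE, edgeR adjusted p = 0.0080) and was 0.44 ± 0.21 higher in WT (SE, edgeR adjusted p = 0.071).

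Of the 5 sensors and their ligase, 4 rose in both genotypes. Zbp1, a sensor of left-handed nucleic acid that can start necroptosis, was 17.7, 22.8, 17.3 and 15.6 CPM in WT on HFCDD against 1.17 to 4.69 (median 2.63) on chow. In KO livers it was 12.4, 9.30, 25.2 and 18.2 CPM against 1.63 to 4.10 (median 2.19). The groups did not overlap, and Zbp1 was 6.75-fold higher in WT (log2 2.75 ± 0.33, SE, edgeR adjusted p = 3.7e-07) and 6.78-fold in KO (2.76 ± 0.31, SE, edgeR adjusted p = 1.4e-07). The cytosolic RNA helicases moved less and with little spread. Ifih1 (MDA5) was 58.3, 55.7, 50.7 and 56.9 CPM in WT and 46.4, 42.7, 53.7 and 61.8 in KO on HFCDD, against medians of 24.0 and 22.1 on chow. That is a log2 rise of 1.16 ± 0.12 in WT (SE, edgeR adjusted p = 1.7e-08) and 1.31 ± 0.12 in KO (SE, edgeR adjusted p = 7.8e-10). Ddx58 (RIG-I) was 51.0, 45.0, 41.4 and 40.8 CPM in WT and 38.7, 31.3, 39.5 and 39.7 in KO on HFCDD, above the chow maxima of 28.7 and 22.2. It rose by 1.04 ± 0.12 and 0.96 ± 0.11 in log2 (SE, edgeR adjusted p = 5.7e-08 and 8.1e-08). Dhx58 (LGP2), their regulator, rose by 1.10 ± 0.16 and 1.11 ± 0.16 (SE). Trim25, the ubiquitin ligase that acts with RIG-I, stayed between 91.4 and 123.4 CPM in all WT livers and between 90.0 and 122.6 in all KO livers, and was not called.

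All 4 IFIT genes, whose proteins bind viral RNA at its 5′ end and hinder its translation, rose in both genotypes. They lie together on chromosome 19, between bases 34550694 and 34650009 of GRCm38. Ifit1, with the paired promoter matches shown above, was 26.2, 29.3, 28.4 and 22.1 CPM in WT on HFCDD against 4.86 to 14.1 (median 7.98) on chow. The KO HFCDD livers were at 15.97, 9.15, 20.6 and 17.3 CPM against 5.42 to 9.53 (median 7.14), so that KO HFCDD liver 2 lay within the chow range and the other 3 above it. The rise was 1.53 ± 0.26 on the log2 scale in WT (SE, edgeR adjusted p = 3.2e-05) and 1.10 ± 0.25 in KO (SE, edgeR adjusted p = 0.00060). Ifit2 was 26.2, 25.8, 20.6 and 23.1 CPM in WT and 19.3, 12.9, 21.3 and 23.8 in KO on HFCDD, against 2.35 to 5.17 (median 3.69) and 2.396 to 6.49 (median 3.79) on chow. It had the largest rise of the family, 2.66 ± 0.26 in WT (SE, edgeR adjusted p = 1.4e-08) and 2.09 ± 0.24 in KO (SE, edgeR adjusted p = 1.3e-07). Neither of its 2 RefSeq windows held an ISRE-type match, and 1 of them held a GAS-type match. Ifit3 and Ifit3b rose by 1.83 ± 0.22 and 1.77 ± 0.30 in WT and by 1.14 ± 0.21 and 1.18 ± 0.29 in KO (log2, SE). Of the 50-base words in the Ifit3 transcripts 51.2% also occur in other genes, with Ifit3b among them, and of those in Ifit3b 45%, so reads of these near copies may have been split or dropped in counting and their separate levels are uncertain.

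The OAS genes did not all move in the same direction. Oas1a, Oas2 and Oas3 lie together on chromosome 5 between bases 120730333 and 120907521 of GRCm38, and Oasl1 and Oasl2 between 114896936 and 114937915 of the same chromosome. Oas3 had the largest rise of the 41 genes in WT livers. It was 9.56, 11.2, 8.03 and 9.69 CPM on HFCDD against 0.589 to 1.746 (median 1.19) on chow, which is 8.12-fold (log2 3.02 ± 0.28, SE, edgeR adjusted p = 3.6e-09). Its KO levels were 5.88, 5.04, 8.15 and 8.08 CPM against 0.762 to 3.18 (median 1.55), or 3.90-fold (log2 1.96 ± 0.26, SE, edgeR adjusted p = 5.7e-07). Oas1a, Oasl1 and Oasl2 rose by 1.95, 1.71 and 1.95 on the log2 scale in WT and by 1.66, 1.58 and 1.31 in KO. Oas1a shares 57.6% of its 50-base words with other genes, Oas1g and Oas1b among them, and its level is uncertain for that reason. Among the OAS members Oas2 lay apart, although Oas1b, an OAS gene outside the list, also fell in both genotypes, as given below. In WT it was 6.43, 6.57, 3.95 and 5.75 CPM on HFCDD, of which 3 lay inside and 1 just below the chow range of 4.08 to 11.9 (median 5.63), with a log2 difference of -0.19 ± 0.25 (SE, edgeR adjusted p = 0.53). In KO it was 3.26, 2.28, 4.16 and 3.96 CPM, all below the chow range of 5.83 to 10.5 (median 7.43), and it fell by 1.22 in log2 (SE 0.25, edgeR adjusted p = 0.00019).

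**Figure D3:**
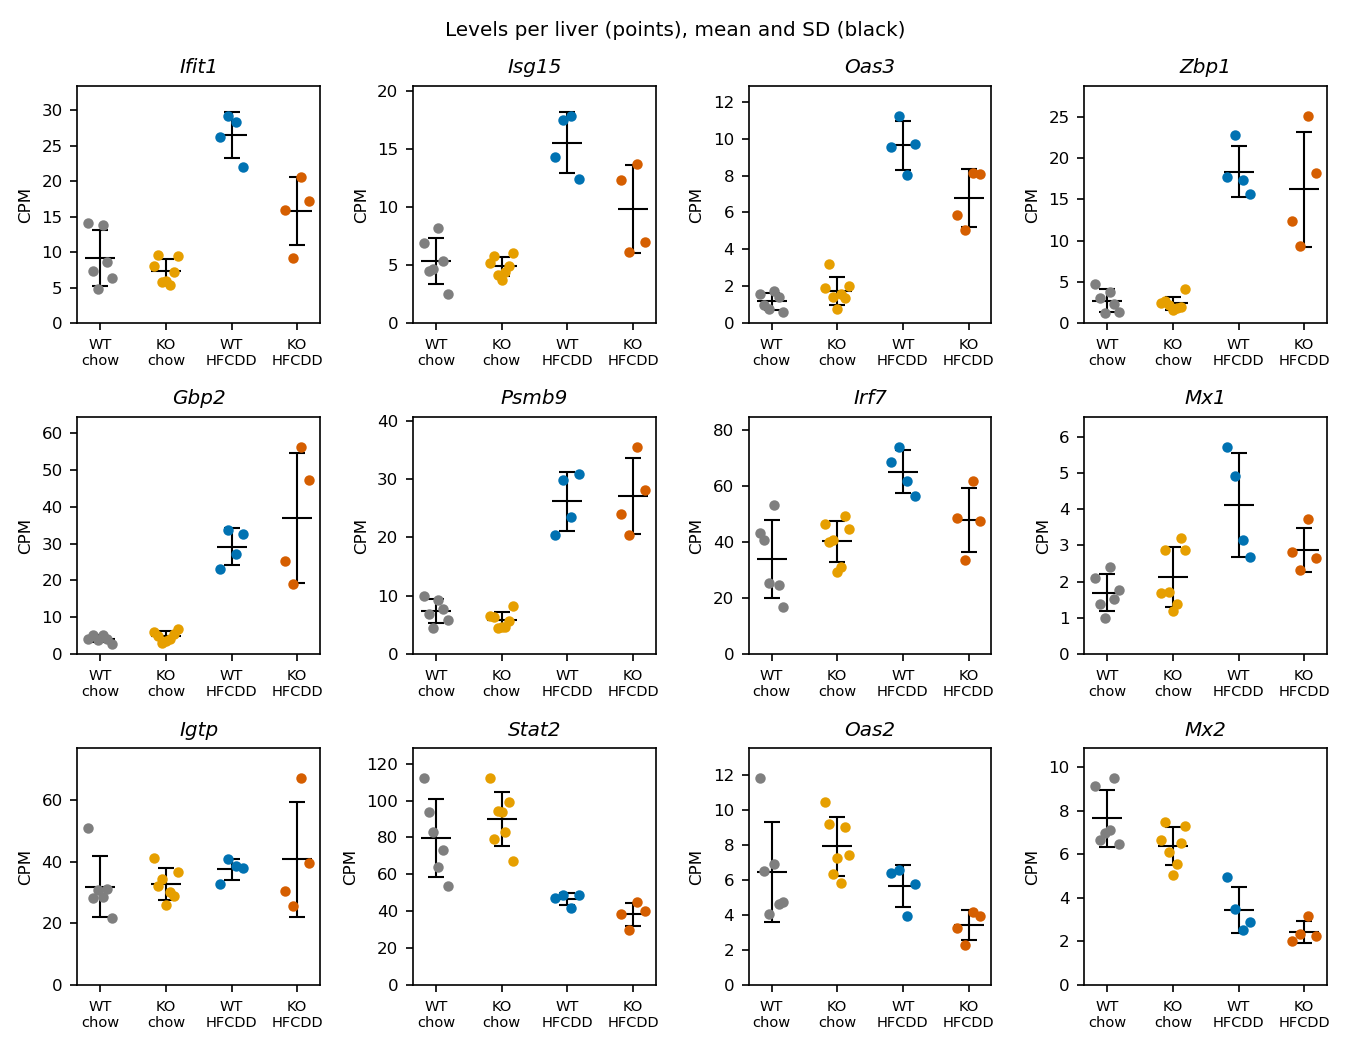
CPM of 12 members in each liver (points) with the group mean and SD (black), each panel starting at 0. Isg15, Oas3, Zbp1, Gbp2 and Psmb9 separate the diets within each genotype, Ifit1 does so in WT only, Igtp in neither, and Stat2 and Mx2 are lower in HFCDD livers.

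Isg15 and Usp18, the protease that removes ISG15 and restrains type I receptor signalling, rose in both genotypes. Isg15 was 14.4, 17.5, 17.9 and 12.5 CPM in WT on HFCDD against 2.50 to 8.21 (median 4.98) on chow. KO HFCDD livers were at 12.4, 6.18, 13.7 and 6.99 CPM, with livers 2 and 4 only just above the highest KO chow liver, 6.02 (median 4.91). The log2 rise was 1.54 ± 0.25 in WT (SE, edgeR adjusted p = 1.3e-05) and 1.003 ± 0.24 in KO (SE, edgeR adjusted p = 0.00082). Usp18 rose by 0.96 ± 0.15 and 0.93 ± 0.14 in log2 (SE).

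Of the 10 other antiviral effectors, 8 rose and 1 fell in WT, and 6 rose and 1 fell in KO. Ifi44 and Epsti1 rose most. Ifi44, a cytosolic protein linked to antiviral defence, was 12.2, 12.3, 13.03 and 8.51 CPM in WT on HFCDD against 1.37 to 3.02 (median 2.44) on chow, and 7.35, 4.19, 10.8 and 9.82 in KO against 1.52 to 3.88 (median 2.50). Its log2 rise was 2.37 ± 0.26 in WT (SE, edgeR adjusted p = 4.7e-08) and 1.67 ± 0.25 in KO (SE, edgeR adjusted p = 2.8e-06). Epsti1 was 12.2, 13.2, 11.9 and 12.9 CPM in WT and 11.2, 10.07, 14.3 and 15.4 in KO, all above the highest chow livers of 4.105 and 4.685. Its rise was 1.98 ± 0.20 in WT (SE, edgeR adjusted p = 1.1e-08) and 1.750 ± 0.19 in KO (SE, edgeR adjusted p = 1.9e-08). Rtp4, a chaperone of membrane receptors that also restrains flaviviruses, rose by 1.56 ± 0.23 and 1.09 ± 0.22 (SE). Xaf1, a proapoptotic antagonist of XIAP, rose by 1.82 ± 0.22 and 1.598 ± 0.21 (SE). Rsad2 (viperin, which makes a chain-terminating nucleotide) and its neighbour Cmpk2, a mitochondrial nucleotide kinase, rose by 1.10 ± 0.21 and 1.25 ± 0.21 in WT and by 0.52 ± 0.20 and 0.80 ± 0.20 in KO (SE). The neighbours Mx1 and Mx2, on chromosome 16 between bases 97447035 and 97560900, went in opposite directions in WT livers. Mx1 was 5.73, 4.92, 3.15 and 2.67 CPM on HFCDD against 1.01 to 2.41 (median 1.64) on chow, and rose by 1.27 ± 0.28 in log2 (SE, edgeR adjusted p = 0.00048). Mx2 was 4.94, 3.48, 2.54 and 2.88 CPM against 6.48 to 9.52 (median 7.06), and fell by 1.15 (SE 0.18, edgeR adjusted p = 1.1e-05). In KO, Mx2 was 2.03, 2.35, 3.15 and 2.23 CPM against 5.07 to 7.496 (median 6.51) and fell by 1.39 (SE 0.19, edgeR adjusted p = 5.8e-07), while Mx1 differed by 0.42 ± 0.28 (SE, edgeR adjusted p = 0.17). Ifi35 was between 20.4 and 28.7 CPM in all livers and was not called in either genotype. Bst2 rose in WT by 0.33 ± 0.13 in log2 (SE, edgeR adjusted p = 0.035), a call kept in 12 of 19 alternative analyses, and in KO its difference was -0.09 ± 0.13 (SE, edgeR adjusted p = 0.57).

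The GTPases known for strong induction by interferon gamma also split. Gbp2, a guanylate-binding protein that coats microbial vacuoles, was 23.0, 33.7, 27.2 and 32.7 CPM in WT on HFCDD against 2.603 to 5.24 (median 4.05) on chow. In KO it was 25.2, 19.1, 56.4 and 47.4 CPM against 3.10 to 6.93 (median 4.81). That is 7.06-fold in WT (log2 2.82 ± 0.27, SE, edgeR adjusted p = 2.2e-08) and 7.61-fold in KO (log2 2.93 ± 0.25, SE, edgeR adjusted p = 3.2e-09). Gbp3 and Gbp7 rose by 1.71 ± 0.28 and 1.28 ± 0.20 on the log2 scale in WT and by 1.22 ± 0.27 and 1.61 ± 0.20 in KO (SE). The immunity-related GTPases moved less. Irgm1 rose by 0.96 ± 0.19 and 0.80 ± 0.18 in log2 (SE). Iigp1, second most abundant per kilobase, rose by 0.56 ± 0.18 in WT (SE, edgeR adjusted p = 0.0088) and by 0.39 ± 0.17 in KO (SE, edgeR adjusted p = 0.046), the latter call kept in 8 of 20 alternative analyses. Irgm2 rose in KO by 0.63 ± 0.23 (SE, edgeR adjusted p = 0.019) and was 0.44 ± 0.24 higher in WT (SE, edgeR adjusted p = 0.11). Igtp was 32.7, 40.8, 38.7 and 38.0 CPM in WT and 30.6, 25.7, 67.3 and 39.6 in KO on HFCDD, against chow ranges of 21.9 to 50.9 and 26.03 to 41.3, and was not called in either. Igtp and Irgm2, which carry the same adjacent pair of promoter matches, were not called in WT, and Gbp2, with 1 match, rose 7.06-fold there. In KO, Irgm2 was called higher and Igtp was not. Exons of Igtp and Irgm2 overlap on the same strand by 162 bases. Of their 50-base words 11.8% and 7.83% also occur in other genes, each other among them, so their separate levels are uncertain.

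Psmb8 and Psmb9, catalytic subunits of the immunoproteasome that makes peptides for MHC class I, rose in both genotypes. Psmb9 was 20.4, 29.9, 23.6 and 30.8 CPM in WT on HFCDD against 4.53 to 9.96 (median 7.34) on chow, and 24.0, 20.4, 35.6 and 28.2 in KO against 4.44 to 8.21 (median 5.62). Its log2 rise was 1.82 ± 0.20 in WT (SE, edgeR adjusted p = 6.0e-08) and 2.22 ± 0.19 in KO (SE, edgeR adjusted p = 1.0e-09). Psmb8 was 40.9, 56.8, 48.1 and 51.8 CPM in WT and 47.6, 44.0, 65.3 and 48.7 in KO, above the chow maxima of 31.6 and 25.4, and rose by 1.05 ± 0.15 and 1.22 ± 0.15 (SE, edgeR adjusted p = 3.2e-06 and 1.4e-07). Exons of Psmb9 overlap those of Tap1 on the other strand by 212 bases, and exons of Psmb8 overlap Gm20496 by 498 bases; whether counting used strand is not given in the sources used here. Of the ADP-ribosyltransferase genes, Parp14 rose by 0.98 ± 0.14 and 0.99 ± 0.14 in log2 (SE), and Parp9 rose in KO by 0.45 ± 0.10 (SE, edgeR adjusted p = 0.00057) and was 0.20 ± 0.11 higher in WT (SE, edgeR adjusted p = 0.11). Across the promoter classes, 14 of the 17 genes with an ISRE-type match rose in each genotype. So did 10 of the 14 with a promoter window and no such match, beside 29% of all genes in WT and 33.7% in KO. The median log2 fold change was 1.275 in WT and 1.101 in KO with the match, and 1.478 and 1.266 without it.

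Between KO and WT livers on chow, 1 of the 41 genes passed the test. None was called higher, against 0.561% of all genes, and 1 was called lower, against 1.61%; 5 had an unadjusted edgeR p under 0.05. The log2 fold changes were positive for 20 and negative for 21, with a median of -0.01 beside 0.01 over all genes. No gene had every KO liver above every WT liver (0.236% of all genes did), and 1 had every KO liver below (0.421%). That gene and the called gene are both Parp9, an ADP-ribosyltransferase-like protein that works as a pair with the ubiquitin ligase Dtx3l. Parp9 was 40.2 to 52.8 CPM (median 52.2) in the 7 KO livers and 55.9 to 75.1 (median 61.3) in the 6 WT livers, and fell by 0.40 in log2 (SE 0.09, edgeR adjusted p = 0.030). Exons of Parp9 and Dtx3l overlap on opposite strands by 458 bases, so reads there cannot be assigned without strand; Dtx3l differed by -0.33 ± 0.10 (log2, SE, edgeR adjusted p = 0.095). The Parp9 call was kept in 12 of 22 alternative analyses. It was lost without WT chow liver 1, 5 or 6 or KO chow liver 1, 4 or 6 (edgeR adjusted p = 0.053 to 0.099), without KO chow livers 1 and 7 together, and without the 4 livers rich in Dmbt1 (edgeR adjusted p = 0.080), where Usp18 was called lower (log2 -0.52, edgeR adjusted p = 0.049).

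The next smallest p-values on chow belonged to Dhx58, Bst2, Usp18 and Ifih1, and none was called. Dhx58 was 4.41 to 8.59 CPM (median 6.75) in KO and 6.88 to 11.9 (median 8.91) in WT livers, a log2 difference of -0.49 ± 0.14 (SE, edgeR adjusted p = 0.072), which 3 of 22 alternative analyses called lower. Bst2 was 112.7 to 147.7 CPM (median 127.8) in KO and 68.0 to 129.3 (median 99.2) in WT, a difference of 0.37 ± 0.12 (SE, edgeR adjusted p = 0.099). Usp18 differed by -0.33 ± 0.13 (SE, edgeR adjusted p = 0.17) and Ifih1 by -0.27 ± 0.11 (SE, edgeR adjusted p = 0.18). Ifit1 was 5.42 to 9.53 CPM in KO and 4.86 to 14.1 in WT livers on chow, with a difference of -0.33 ± 0.23 in log2 (SE, edgeR adjusted p = 0.50).

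**Figure D4:**
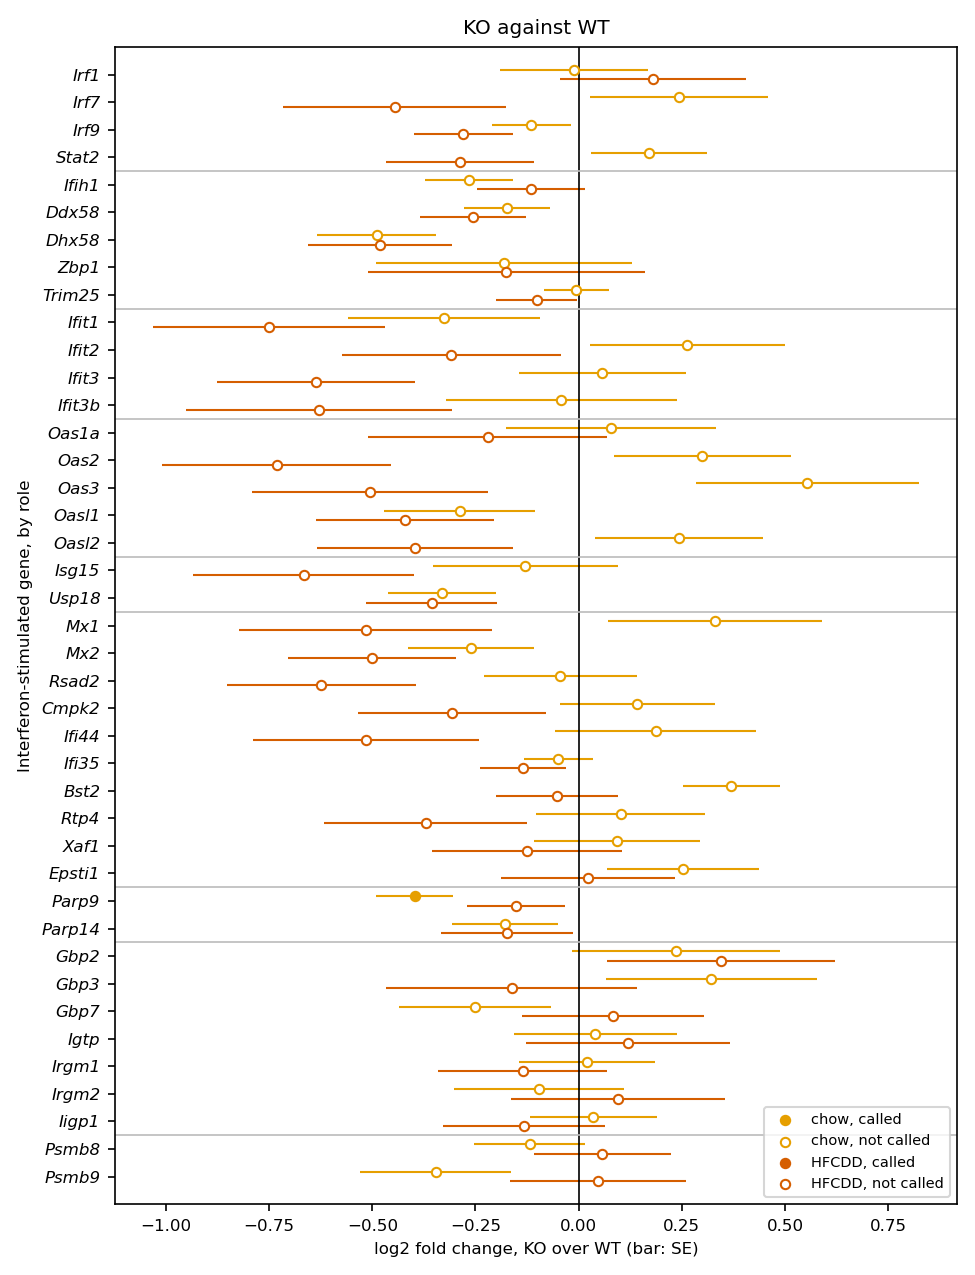
Points are log2 fold changes of KO over WT with bars of 1 SE from the edgeR fit, on chow (yellow) and on HFCDD (orange). The filled point, Parp9 on chow, is the only member with an adjusted p under 0.05. On HFCDD 33 of 41 points lie left of 0, Ifit1 farthest.

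On HFCDD the genes were mostly lower in KO than in WT livers, but none passed the test. No member was called higher, against 0.223% of all genes, or lower, against 0.0957%, while 9 had an unadjusted edgeR p under 0.05. The log2 fold change was negative for 33 of 41 and positive for 8, with a median of -0.26 beside 0.01 over all genes. Every KO liver lay below every WT liver for 7 genes, against 3.66% of all genes, and above for none, against 4.96%. Those 7 were Dhx58, Rsad2, Ifit1, Ifit3, Ifit3b, Oasl1 and Ddx58. Ifit1 was 15.97, 9.15, 20.6 and 17.3 CPM in KO and 26.2, 29.3, 28.4 and 22.1 in WT, a log2 difference of -0.75 ± 0.28 (SE, edgeR adjusted p = 0.35). Ifit3 was 17.2, 11.4, 22.5 and 18.4 CPM in KO and 29.9, 28.9, 26.3 and 22.8 in WT, a difference of -0.64 ± 0.24 (SE, edgeR adjusted p = 0.35). Rsad2 was 23.2, 16.5, 28.7 and 25.4 CPM in KO and 41.4, 39.3, 33.7 and 30.2 in WT (-0.62 ± 0.23, SE, edgeR adjusted p = 0.34). Dhx58 was 15.6, 11.6, 14.4 and 14.2 CPM in KO and 23.0, 19.3, 18.2 and 17.4 in WT (-0.48 ± 0.17, SE, edgeR adjusted p = 0.31). Oas2 was 3.26, 2.28, 4.16 and 3.96 CPM in KO and 6.43, 6.57, 3.95 and 5.75 in WT, with overlap (-0.73 ± 0.28, SE, edgeR adjusted p = 0.35). Oasl1 was 18.3 to 20.3 CPM in KO and 22.9 to 29.4 in WT livers. In limma-voom with sample quality weights Ifit1 and Ifit3 were called lower (adjusted p = 0.039 and 0.042).

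The direction was not the same in all roles, and no test was made between roles. This comparison shares its livers with the diet comparisons above. The median log2 difference of KO from WT on HFCDD was -0.63 over the 4 IFIT genes, -0.42 over the 5 OAS genes, -0.51 over Isg15 and Usp18, -0.34 over the 10 other antiviral effectors and -0.18 over the 5 sensors. It was 0.08 over the 7 interferon-gamma GTPases, 4 of them positive, and 0.05 over Psmb8 and Psmb9. Gbp2 was 0.34 ± 0.28 higher in KO (log2, SE, edgeR adjusted p = 0.75). These medians depend on single livers. Without KO HFCDD liver 2, 14 genes were positive and 27 negative (median -0.14), all 7 GTPases were positive and the IFIT median was -0.45. Without KO HFCDD liver 3, 1 was positive and 40 negative (median -0.37), and 6 of 7 GTPases were negative. Cholangiocyte markers moved with genotype on this diet: all 5 had every KO liver above every WT liver, 3 of them were called higher, and they summed to 38.1 to 62.0 CPM in KO against 15.8 to 20.8 in WT. Hepatocyte markers were lower in KO for 6 of 6 on this diet (median log2 difference -0.23), endothelial markers for 5 of 5 (-0.24) and Kupffer cell markers for 5 of 5 (-0.18), none of them called. Endothelial markers summed to 241 to 260 CPM in KO and 263 to 308 in WT livers, without overlap. No marker of recruited macrophages, plasmacytoid dendritic cells, T and NK cells or neutrophils was called between genotypes on HFCDD. The part of these cells in the members' values was not tested.

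The difference between the genotype effects on the 2 diets, which is also the difference between the diet effects in the 2 genotypes, was tested directly. No member and no other gene was called (0% higher and 0% lower), and 5 members had an unadjusted edgeR p under 0.05. No member was called in any of 29 alternative analyses either, but the count over all genes depended on the analysis. It stayed at 0 with 2 other scalings. With DESeq2, 45 genes were called higher and 52 lower. Without KO chow livers 1 and 7 the counts were 65 and 19, and without the 4 livers rich in Dmbt1 they were 45 and 17. The median over the 41 was -0.22, with 29 negative and 12 positive, beside 0.00 over all genes. The smallest p-values belonged to Oas2 (log2 -1.03 ± 0.35, SE, edgeR adjusted p = 0.29), Oas3 (-1.06 ± 0.39, adjusted p = 0.36), Bst2 (-0.42 ± 0.19, adjusted p = 0.45), Ifit3 (-0.69 ± 0.31, adjusted p = 0.46) and Mx1 (-0.85 ± 0.40, adjusted p = 0.48). For Zbp1 the difference was 0.01 ± 0.43 and for Gbp2 0.11 ± 0.38 (SE).

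Within a group, the genes tended to be high or low together in a liver. WT chow liver 1 was above its group median for all 41 genes, by a median of 0.35 on the log2 scale, and WT chow livers 3 and 6 were below for 36 and 35. KO chow liver 4 was below for 39 and the lowest of its group for 25 of the 41, against 14.8% of all genes. KO chow livers 1 and 7 were above for 33 each. KO HFCDD liver 2 was below for 39, with a median deviation of -0.47 on the log2 scale. It was the lowest of its group for 37 of the 41, against 26.7% of all genes. KO HFCDD liver 3 was above for 39, by a median of 0.34. The median deviations of the 4 WT HFCDD livers stayed between -0.08 and 0.08. Over all genes the share above the group median was between 42.0% and 52.7% in every liver.

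**Figure D5:**
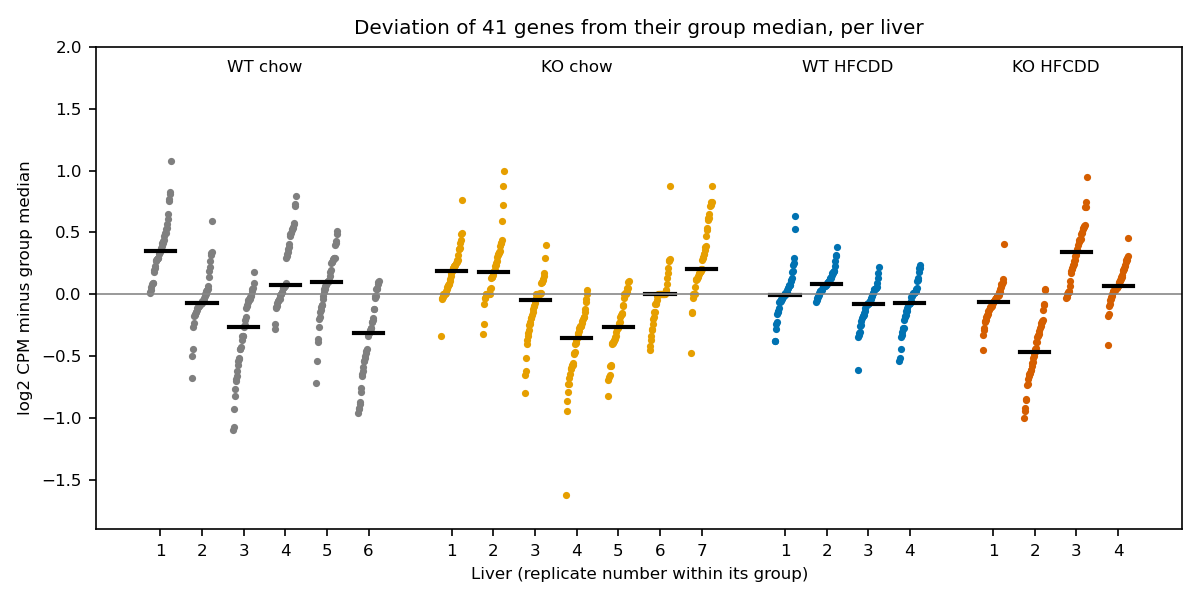
Each point is 1 of the 41 genes in 1 liver, as log2 CPM minus the median of that gene in its group, and black bars are the median over the genes. WT chow liver 1 and KO HFCDD liver 3 lie high, KO chow liver 4 and KO HFCDD liver 2 lie low, and the WT HFCDD livers stay near 0.

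The spread between livers of a group was wider for these genes than for the typical gene in 3 groups. The median SD of log2 CPM over the 41 genes was 0.39 in WT on chow, 0.32 in KO on chow and 0.36 in KO on HFCDD, against 0.26, 0.23 and 0.21 over all genes. In WT on HFCDD it was 0.18 against 0.17. The widest were Zbp1 in WT on chow (0.78), Oas1a in KO on chow (0.69), Mx1 in WT on HFCDD (0.51) and Gbp2 in KO on HFCDD (0.74). KO HFCDD liver 2 was at an end of its group for most marker lists. Its sums were the highest for recruited macrophage (917 CPM), cholangiocyte (62.0 CPM), stellate (377 CPM) and hepatocyte markers (93850 CPM). They were the lowest for plasmacytoid dendritic cell (4.34 CPM), neutrophil (10.1 CPM), endothelial (241 CPM), B cell (4.78 CPM) and erythroid markers (21.9 CPM). Kupffer cell markers (612 CPM) and T and NK cell markers (7.39 CPM) lay inside the range of the other livers. The part of these cells in its low values was not tested.

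Other genes of the interferon pathway, 90 of them tested, give the setting. None of the 21 interferon genes in the tables had enough reads to be tested. For 16 of them no library held a read, and a count of 0 allows up to 3 counts in a library, for counting error only. Ifna7, Ifnb1, Ifnk, Ifnz and Ifng had at most 4 counts in any liver. On HFCDD 64 of the 90 rose and 5 fell in WT, and 62 rose and 6 fell in KO. Of all genes tested, 29% rose and 33.6% fell in WT, and 33.7% rose and 36% fell in KO. The smallest p-values among those that rose belonged to Samd9l, Il10rb, Ifngr2, Irf5, Tlr7 in WT and Parp12 in KO. Samd9l, a restriction factor of poxviruses, rose by 2.03 ± 0.13 in WT and 2.07 ± 0.12 in KO (log2, SE), Parp12 by 1.117 ± 0.08 and 1.24 ± 0.08, and Il10rb, a subunit of the interferon lambda receptor, by 1.74 ± 0.12 and 1.84 ± 0.12 (SE). Receptor genes moved unequally. Ifngr2 rose by 1.55 ± 0.11 and 1.91 ± 0.10 on the log2 scale in WT and KO and Ifngr1 by 0.97 ± 0.11 and 1.118 ± 0.10 (SE). Ifnar1 rose by 0.35 ± 0.09 and 0.50 ± 0.09, while Ifnar2 differed by 0.04 ± 0.07 and 0.13 ± 0.07 and was not called (SE). Ifnlr1, the other subunit for interferon lambda, was 0.61 ± 0.44 higher in WT (SE, edgeR adjusted p = 0.24) and rose by 2.42 ± 0.38 in KO (SE, edgeR adjusted p = 6.5e-06). Its counts were low: 2 to 16 in WT and 3 to 12 in KO livers on chow, and 10 to 17 and 26 to 72 on HFCDD. Ifnlr1 was not called between genotypes on HFCDD, nor in the difference of the genotype effects. The kinase genes Jak1 and Jak2 rose by 0.72 ± 0.07 and 0.72 ± 0.12 in WT and by 0.79 ± 0.07 and 0.72 ± 0.11 in KO (SE), and Tyk2 was not called.

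Among genes that start interferon production, the endosomal nucleic acid receptors Tlr3, Tlr7 and Tlr9 rose by 1.49 ± 0.14, 2.49 ± 0.18 and 3.15 ± 0.28 on the log2 scale in WT and by 1.37 ± 0.14, 2.33 ± 0.17 and 3.10 ± 0.27 in KO (SE). The DNA sensor Cgas and its partner Tmem173 (STING) rose by 2.169 ± 0.31 and 1.78 ± 0.16 in WT and by 0.86 ± 0.29 and 2.08 ± 0.16 in KO (SE). Mavs, the adaptor of RIG-I and MDA5, fell by 0.75 in WT (SE 0.08) and by 0.81 in KO (SE 0.08), and Irf3, the factor it activates, fell by 0.39 and 0.60. The myeloid factors Irf5 and Irf8 rose by 2.03 ± 0.14 and 1.78 ± 0.14 in WT (SE). Helz2 fell by 1.120 and 1.52, Oas1b by 1.23 and 1.65 and Nlrc5 by 0.53 and 0.74 in WT and KO, and Ifi27 fell by 0.53 in KO. Between genotypes on chow 1 of the 90 was called, Parp12, another ADP-ribosyltransferase, which fell by 0.30 in log2 (SE 0.07, edgeR adjusted p = 0.037). Over all genes, 0.561% were called higher and 1.61% lower there. None of the 90 was called on HFCDD, against 0.223% of all genes higher and 0.0957% lower, and 7 had an unadjusted edgeR p under 0.05.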

How the data were processed

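RNA-seq read counts of 21 whole mouse livers were used, 1 library per animal. Per the labels' protocols, livers were perfused, kept in RNA later and extracted for total RNA. The authors deposited raw counts per gene, with CASAVA 2.17, STAR 2.6.1d, featureCounts 1.6.1 and build GRCm38 named in the submitters' processing notes. The gene annotation release and the strand setting are not given in the sources used here. Library totals were 17502231 to 25822972 counts, and the lowest count of a member in a library was 12 (Oas3), so the lowest members carry the most counting error.

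Genes were filtered with filterByExpr on the 4 groups (about 0.442 CPM in at least 4 libraries), which kept 15677 of 55418. Counts were scaled by the trimmed mean of M values and fitted once over all 21 libraries with edgeR 4.0.16 (robust quasi-likelihood, R 4.3.3), and 5 contrasts were tested two-sided with Benjamini-Hochberg adjustment over all genes and a threshold of 0.05. Each SE was derived as the absolute log2 fold change over the root of its F statistic. Log2 CPM used a prior count of 2. Planted folds were recovered in counts simulated from the fitted model, for well-counted genes and folds larger than the members' genotype differences. Recovery of smaller folds or at low counts was not tested. Positions and exon lengths come from a GENCODE annotation of GRCm38, and promoters from RefSeq (GRCm38.p6).

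The members and gene lists were chosen with earlier results of these data known. Genes given with full statistics were those with the smallest p in each contrast (8 per diet contrast, 5 per genotype contrast), and others were named by role. Alternatives were DESeq2 1.42.0, limma 3.58.1 (voom with sample quality weights), 2 other scalings, 2 other filters, a fit of the compared groups alone, and leaving out livers. Animal numbers are unique, so no pairing exists. P-values set a difference against the spread between these animals, pooled over the 4 groups, and cannot separate diet from age or animal series.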

Additional observations from a re-analysis of the deposited data

Results flagged for a closer look

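In 4 of 168 sets of values (a gene in a group of livers) 1 liver lay far from the others by Dixon's criterion, and chance gives about 1 in 20. Oas1a was lowest in WT chow liver 3, at 1.06 CPM against 2.21 ± 0.629 (SD, n = 6) for its group. Usp18 was lowest in the same liver, at 9.56 CPM against 13.7 ± 2.18 (SD, n = 6). Ifi44 was lowest in WT HFCDD liver 4, at 8.51 CPM against 11.5 ± 2.03 (SD, n = 4). Ddx58 was lowest in KO HFCDD liver 2, at 31.3 CPM, where the other 3 livers of the group were at 38.7, 39.5 and 39.7.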

How the results depend on the processing

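The diet counts kept their size in all alternatives run: 30 of 31 higher calls and both lower calls in WT were made in each of 19, and 27 of 31 higher and 3 of 3 lower calls in KO in each of 20. The exceptions were Bst2 in WT (12 of 19) and Iigp1, Rsad2, Irf1 and Irgm2 in KO (8, 17, 19 and 19 of 20). In WT some alternatives also called higher a gene that was not called: Irf9 in 10 of 19, Irf1 in 4, and Irgm2 and Parp9 in 2 each. The genotype counts are small and moved. On chow, 1 member was called lower, against 2 with DESeq2, 0 with limma-voom, 0 in a fit of the compared groups only, 0 without KO livers 1 and 7, and 0 to 2 when 1 liver was left out; it was lost without WT liver 1, 5 or 6 or KO liver 1, 4 or 6. The count called higher on chow was 0 to 1 when 1 liver was left out (Bst2 without WT liver 4). On HFCDD, 0 were called lower, against 2 with limma-voom and 1 (Oasl1) in a fit of the compared groups only. The causes were not tested. No direction of a called gene was reversed. A fit of the compared groups only was not run for the difference of the genotype effects. No paired analysis was possible because the animal numbers in the labels are unique to each liver.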
